A study of Mus musculus with 40 samples.

Results

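The loci described here are those of 10 mouse genes that encode AP-1 proteins or their close relatives, namely Jun, Junb and Jund, Fos, Fosb, Fosl1 and Fosl2, and Atf3, Batf and Jdp2. A locus was the RefSeq gene body and 25 kb on each side, and a reporter fragment belonged to it when the centre of the fragment lay inside. The 10 loci held 1335 of the 458486 fragments listed in 40 libraries, of which 1057 were different. Overlapping fragments merged into 69 regions, out of 75060 in the whole genome.

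AP-1 is a dimer of basic leucine zipper proteins that binds the palindrome TGACTCA. JUN proteins pair with each other or with FOS proteins, whereas FOS proteins need a JUN partner, and the ATF, BATF and JDP proteins join the same dimers as activators or repressors. Many of these genes are immediate early genes, switched on within minutes by MAP kinase signalling through SRF, which binds the CArG box, and its ternary complex partners. In blood and vessel development AP-1 acts downstream of VEGF, and AP-1 sites often lie near sites of the TEAD factors in enhancers of endothelial precursors.

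The fragments came from an enhancer screen in HM-1, an embryonic stem cell line of the 129/ola mouse strain whose Hprt locus is repaired when a reporter construct integrates. Each fragment of open chromatin, cut by the Tn5 transposase, stood before the HSP68 minimal promoter and a Venus-YFP gene at that locus, so a positive cell reads out the fragment away from its own chromosome. The stages were embryonic stem cells (ES), FLK1+ hemangioblast-like cells (HB), hemogenic endothelium 1 (HE1, KIT+ TIE2+ CD41-), hemogenic endothelium 2 (HE2, KIT+ TIE2+ CD41+) and hematopoietic progenitors (HP), all differentiated from the same targeted cells. The culture in which FLK1+ cells became HE1, HE2 and HP contained serum, D4T conditioned medium, VEGF and IL-6. Each stage was sorted by YFP into Negative, Low, Medium and High gates in 2 replicates, which gave 20 groups of 2 libraries. Below, a sort is 1 stage of 1 replicate, a fragment listed in any of the Low, Medium and High gates of a sort counts once as positive there, and the fragments of its Negative gate are called Negative.

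Depth differed between the replicates. The 20 replicate 1 libraries held 4869 to 51146 fragments, with a median of 15805, and the 20 replicate 2 libraries 654 to 31915, with a median of 2750. Libraries also shared fragments. At the member loci 92 of the 133 fragments of the HE1 Negative library of replicate 1 (69.2%) stood in the HE1 Medium library of the same replicate as well, and in the whole series 69.8% did. The replicate 2 libraries ES Medium and HE1 Low, which shared 65.5% of the ES Medium fragments over the whole series, had 1 of 6 in common here. Across the member loci 108 of 307 Negative fragments (35.2%) were also positive in the same sort, and outside the HE1 sort of replicate 1 this fell to 15 of 174 (8.62%). In the whole series these shares were 36.3% and 12.9%. Ratios of observed to expected fragments at Fos, Junb and Fosb are therefore also given without the HE1 sort of replicate 1. Rates at Fosl2 are also given without the HE1 Low library of replicate 2. No library was left out of the odds ratios, gate rates, fragment lengths and motif shares below.

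The stretches of 300 bases covered by most positive fragments are printed for the 6 regions with most positive fragments, because nearly every statement on Fos, Junb and Jund rests on them. They are read 5′ to 3′ on the plus strand of the RefSeq assembly GRCm38, which is mm10, from the C57BL/6J reference and not from the 129/ola cells. Capitals mark matches to the AP-1 site (TGACTCA, or TGAGTCA on the other strand), the cyclic AMP response element (TGACGTCA) or the CArG box.
Fos, 18.5 kb before its start, chr12:85455184-85455483: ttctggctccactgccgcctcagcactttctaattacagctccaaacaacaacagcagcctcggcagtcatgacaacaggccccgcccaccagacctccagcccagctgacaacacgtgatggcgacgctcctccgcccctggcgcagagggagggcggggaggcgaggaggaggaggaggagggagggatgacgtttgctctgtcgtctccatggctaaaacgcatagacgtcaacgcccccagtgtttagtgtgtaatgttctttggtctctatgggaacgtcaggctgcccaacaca
Fos, 12.2 kb after its start, chr12:85485927-85486226: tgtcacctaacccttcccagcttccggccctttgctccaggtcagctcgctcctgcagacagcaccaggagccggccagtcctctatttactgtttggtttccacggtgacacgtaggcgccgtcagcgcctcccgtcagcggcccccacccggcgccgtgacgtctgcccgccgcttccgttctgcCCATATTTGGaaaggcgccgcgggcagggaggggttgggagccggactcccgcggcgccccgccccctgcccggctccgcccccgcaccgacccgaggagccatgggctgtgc
Junb, 2.1 kb after its start, chr8:84976410-84976709: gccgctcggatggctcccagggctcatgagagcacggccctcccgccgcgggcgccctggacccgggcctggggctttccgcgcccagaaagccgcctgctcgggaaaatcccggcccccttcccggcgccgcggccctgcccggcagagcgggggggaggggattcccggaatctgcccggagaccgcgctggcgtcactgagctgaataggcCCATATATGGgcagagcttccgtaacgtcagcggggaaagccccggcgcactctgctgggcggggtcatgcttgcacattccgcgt
Junb, 19.3 kb before its start, chr8:84998006-84998305: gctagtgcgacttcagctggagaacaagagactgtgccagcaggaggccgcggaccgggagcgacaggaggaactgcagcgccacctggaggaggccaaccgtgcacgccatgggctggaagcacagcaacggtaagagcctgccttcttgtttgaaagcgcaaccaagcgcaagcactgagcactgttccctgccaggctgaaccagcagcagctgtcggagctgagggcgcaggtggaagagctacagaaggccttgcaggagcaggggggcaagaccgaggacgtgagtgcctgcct
Junb, 7.0 kb before its start, chr8:84985641-84985940: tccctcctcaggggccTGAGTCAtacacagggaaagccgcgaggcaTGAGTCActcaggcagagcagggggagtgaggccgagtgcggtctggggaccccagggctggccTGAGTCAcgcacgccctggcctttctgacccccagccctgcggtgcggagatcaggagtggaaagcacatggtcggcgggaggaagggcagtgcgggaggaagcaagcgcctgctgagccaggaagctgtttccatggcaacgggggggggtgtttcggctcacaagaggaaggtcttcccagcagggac
Jund, 15.2 kb before its start, chr8:70682241-70682540: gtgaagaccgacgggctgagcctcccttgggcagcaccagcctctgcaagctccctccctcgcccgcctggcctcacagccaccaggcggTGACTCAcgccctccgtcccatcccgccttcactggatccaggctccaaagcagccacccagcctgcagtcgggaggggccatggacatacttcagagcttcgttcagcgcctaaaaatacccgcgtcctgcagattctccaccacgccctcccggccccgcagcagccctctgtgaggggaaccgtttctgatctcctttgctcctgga
The capitals differ between the genes. The stretch 12.2 kb after the Fos start and that 2.1 kb after the Junb start each held 1 CArG box, the stretch before Junb held 3 AP-1 sites, and the Jund stretch held 1 AP-1 site. The stretch 18.5 kb before Fos, which had the most fragments of all, and that 19.3 kb before Junb, inside the neighbouring gene Hook2, held no match to any of these 3 motifs. None of the 6 stretches held the cyclic AMP response element.

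Fragments were very unevenly spread over the family. The Fos locus alone held 526 fragments, or 39.4% of all at the 10 loci, Junb 374 (28.0%), Fosb 201 and Jund 83. Fosl2 had 65, Jun 33, Fosl1 23, Jdp2 20, Batf 8 and Atf3 2. Among 21774 protein-coding loci of the same definition, whose median was 9 fragments, Fos had rank 9, Junb rank 47 and Fosb rank 402 by number of fragments. Per length, Fos had 98.5 fragments per 10 kb, the highest density of all these loci, and Junb had 72.1, at rank 10, while the median coding locus had 0.967. Atf3, a stress-induced factor, had 0.317 per 10 kb, and Batf, best known from lymphocytes, had 1.11. Jun, an immediate early gene like Fos, had 6.20.

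No fragment at the 10 loci had its centre within 1500 bp of an annotated transcription start, against 1.84% of the fragments of the whole series. Fragments centred on the promoters of these genes were therefore absent from the lists. Only centres were measured, so the end of a fragment could lie nearer. The methods describe setting fragments near a start apart as promoter fragments, and whether the lists had passed this step is not stated. Of the 1335 fragments, 1114 (83.4%) lay between genes, 141 in exons and 80 in introns. The start of the AP-1 gene itself was the nearest annotated start for 984 fragments (73.7%). All 526 Fos and all 33 Jun fragments had their own gene as the nearest. At Junb 211 fragments (56.4%) lay nearer to another gene, mostly Hook2, at Jund 78 (94.0%), mostly Lsm4, and at Fosl1 22 (95.7%), mostly Fibp. For Jund and Fosl1 the loci therefore describe the neighbourhood of the gene, and the lists do not tell which gene a fragment controls.

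The JUN and FOS family members with many fragments owed them to replicate 1. In the 20 replicate 1 libraries the Fos locus took 82.2 to 222 fragments per 100000 fragments of the library, with a median of 144. In the 20 replicate 2 libraries it took 0 to 61.3, with a median of 0, and 8 of them had any. The ranges did not overlap. Junb took 52.8 to 174 per 100000 in replicate 1, with a median of 108, and 0 to 113 in replicate 2, with a median of 19.6. Fosb took 13.4 to 118 in replicate 1 and 0 to 67.4 in replicate 2. Fosl2, which encodes FRA-2, ran the other way, with 20 fragments (5.54 per 100000, pooled) in replicate 1 and 45 (46.2 per 100000) in replicate 2. Of these 45 the HE1 Low library gave 28, and without it, a setting chosen after the data were seen, replicate 2 had 17 (26.0 per 100000). The median over libraries was 0 for Fosl2 in both replicates. The pooled rate of Jun was also higher in replicate 2, at 13.4 per 100000 (13 fragments) against 5.54 (20 fragments). Its median over libraries was 1.96 in replicate 1 and 0 in replicate 2. All 8 Batf and both Atf3 fragments came from replicate 2. In the whole series 62.0% of replicate 1 fragments and 16.1% of replicate 2 fragments lay in regions of at least 20 fragments, so the replicates differed in how strongly they were concentrated over the whole genome. At the member loci these shares were 91.0% and 60.5%. What set the replicates apart was not tested.

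**Figure D1:**
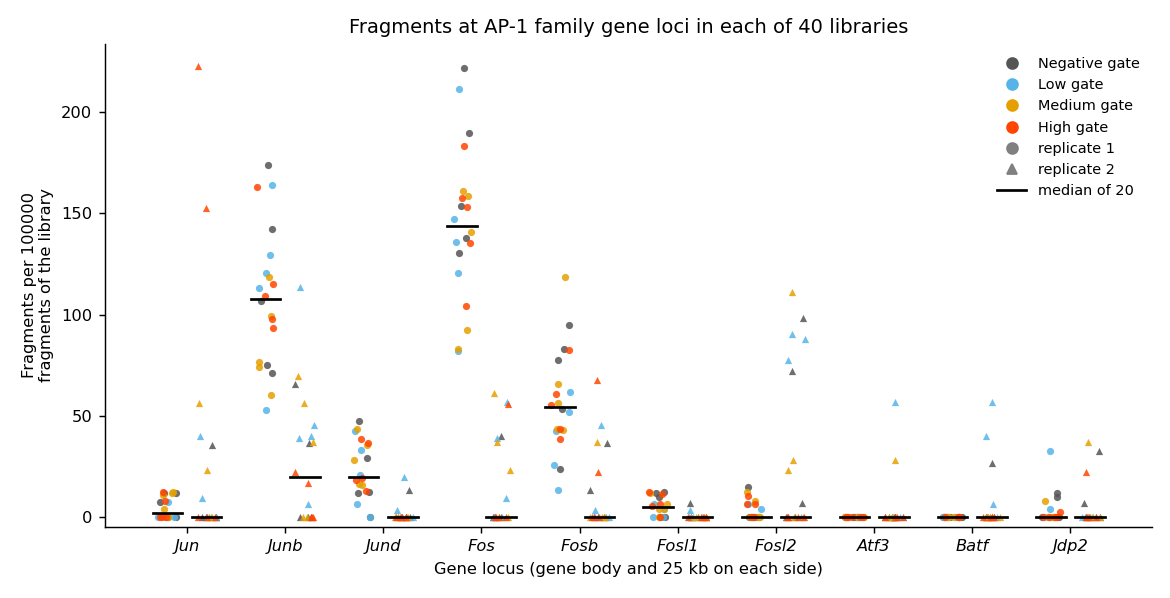
Fragments at each AP-1 family locus per 100000 fragments of the library, for all 40 libraries (points coloured by gate, circles for replicate 1, triangles for replicate 2), with the median of the 20 libraries of a replicate as a bar. Fos in replicate 1 sits between 82.2 and 222, above all of its replicate 2 libraries, while Atf3 and Batf have points above 0 only in replicate 2.

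The first question was whether fragments of these loci were found among reporter-positive cells more or less often than other fragments. At Fos, the archetypal immediate early gene, 389 positive and 126 Negative fragments were counted over the 10 sorts, and 397 positive ones would be expected from the share of positive fragments in each sort. The common odds ratio, which compares the odds of being positive with those of all other fragments and is 1 when they are equal, was 0.910 (95% interval 0.740 to 1.12). At Junb, whose product can oppose or replace JUN, 283 positive and 79 Negative fragments gave 1.01 (0.784 to 1.30). At Fosb 148 and 50 gave 0.835 (0.600 to 1.16), and at Jund, the most broadly expressed JUN gene, 66 and 15 gave 1.21 (0.667 to 2.19). All 4 intervals included 1.

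The smaller loci had wide intervals. Jun, the partner shared by most AP-1 dimers, had 26 positive and 6 Negative fragments and an odds ratio of 1.57 (0.667 to 3.69). Fosl1, which encodes FRA-1, had 15 and 8, with 0.547 (0.215 to 1.39). Fosl2 had 52 and 12, with 0.937 (0.481 to 1.83), and Jdp2, a repressor that pairs with JUN, 13 and 7, with 0.690 (0.267 to 1.78). Atf3 (2 positive fragments) and Batf (4 positive and 4 Negative) fell under the minimum of 20 fragments.

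Each sort formed a stratum in the Cochran-Mantel-Haenszel test. None of the 8 member loci tested was called, with p-values adjusted by the Benjamini-Hochberg method over all 13041 loci. Over all these loci 13 were called, which is 0.0997%, and 434 had an unadjusted p under 0.05, none of them a member. The adjusted p was 1 for each of the 8, and the lowest unadjusted p-values were 0.324 at Fosb and 0.325 at Fosl1. Observed over expected positive fragments had a median of 0.984 over the 8 loci, with 3 above 1 and 5 below, and a median of 1.00 over all loci tested. Without the HE1 sort of replicate 1, with its shared Negative and Medium libraries, the ratio was 0.972 at Fos (0.979 with it), 0.970 at Junb (1.00) and 0.968 at Fosb (0.960). Without the HP sort of replicate 2, which gave 4 of the 26 positive Jun fragments from a library of 1796, the Jun ratio went from 1.11 to 0.985. The labels do not say whether the replicates came from separate transfections, and p-values of this test measure counting spread within the sorts only.

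Kinases, phosphatases and partners of AP-1 were looked at in the same test. Of 16 genes for MAP kinases and the kinases above them, 9 had loci with enough fragments, and 0 were called in either direction. Of 8 dual-specificity phosphatases of MAP kinases 7 were tested, of SRF and the 3 ternary complex factors 2, and of 15 genes for other leucine zipper partners 8, again with 0 called. At an unadjusted p under 0.05 were Dusp2, with 94 positive and 41 Negative fragments (unadjusted p of 0.0379), and Elk3, with 24 and 15 (unadjusted p of 0.0263), both with fewer positive fragments than expected and an adjusted p of 1. The median observed over expected was 0.982 for the kinases, 0.983 for the phosphatases, 0.977 for SRF and its partners and 1.02 for the other zipper genes. The median number of fragments per locus was 49 for the AP-1 family, 22.5 for the kinases, 66 for the phosphatases, 23.5 for SRF and its partners and 27 for the other zipper genes. The largest numbers were 526 at Fos, 360 for the kinases and 143 for the other zipper genes.

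The YFP gates of replicate 1 took the loci at similar rates. Pooled over the 5 stages, Fos took 138 fragments per 100000 in the Low, 132 in the Medium and 143 in the High gate, against 156 in the Negative gate. Its 5 replicate 1 libraries of the High gate ran from 104 to 184 and those of the Negative gate from 130 to 222, so the gates overlapped. Junb took 113 in Low, 78.2 in Medium, 112 in High and 98.7 in Negative libraries, and its Negative libraries ran from 70.9 to 174. Fosb took 35.6 in Low, 54.7 in Medium and in High, and 61.0 in Negative libraries. For Jund the same rates were 23.2, 23.5 and 22.9, with 16.9 in the Negative gate. At each of these 4 loci the ranges of the 4 gates over the 5 stages overlapped.

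The second question was whether a locus was positive at some stages more than at others. The methods describe keeping only fragments with an ATAC peak at their own stage. If the lists had passed that filter, absence at a stage need not mean absence of reporter activity there. The positive fragments of Fos per 100000 positive fragments of the sort were, in replicate 1, 155 in ES, 172 in HB, 134 in HE1, 107 in HE2 and 149 in HP. In replicate 2 they were 22.2, 16.4, 11.5, 0 and 38.4 in the same order. HE2 was the lowest stage in both replicates, with 73 fragments in replicate 1 and 0 in replicate 2, and the highest stage differed. The Low, Medium and High libraries of HE2 in replicate 2 held only 2502, 941 and 654 fragments. A count of 0 there, at this locus or another, therefore says little about the stage. Junb had 115, 100, 96.1, 90.6 and 101 in replicate 1, and 44.3, 24.6, 8.62, 28.8 and 19.2 in replicate 2. Its highest value was in ES in both, but the replicate 2 values rested on 1 to 4 fragments each. Fosb had 61.3, 43.6, 44.1, 52.6 and 63.0 in replicate 1, and 11.1, 32.8, 5.75, 0 and 19.2 in replicate 2. Jund had 32.5, 25.7, 13.7, 30.7 and 25.2 in replicate 1 and a total of 2 positive fragments in replicate 2.

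Fosl2 had the widest spread over stages. It had 0, 7.70, 8.83, 1.46 and 2.52 positive fragments per 100000 in replicate 1, and 11.1, 32.8, 89.1, 0 and 38.4 in replicate 2, where HE1 alone gave 31 of 38 positive fragments. In both replicates HE1 was the highest stage, but in replicate 1 its rate was close to that of HB. Those 2 rates rested on 9 positive fragments in HE1 and 3 in HB. Without the HE1 Low library, HE1 of replicate 2 had 3 positive fragments (75.1 per 100000), and its mean over the replicates was 42.0 ± 46.9 (SD, n = 2). With all libraries, averaged over the 2 replicates the level was 48.9 ± 56.7 in HE1 and 20.2 ± 17.7 in HB (SD, n = 2), so the spread between replicates exceeded the difference between the stages. None of the 5 member loci with at least 40 positive fragments was called across stages by limma, and of all 6153 loci tested 0 were called, which is 0%, with 4 at an unadjusted p under 0.05. The adjusted p was 1.00 for all 5 members, and the lowest unadjusted p was 0.311, at Fosl2. This fit had no replicate block, so the gap between replicates counted as spread within a stage. Its lack of calls therefore does not show equal levels across stages. With the replicate number as a block, limma gave Fosl2 an unadjusted p of 0.0187 and an adjusted p of 0.631, and again called 0 loci, with 362 at an unadjusted p under 0.05. Without HE1 of replicate 2 Fosl2 had too few positive fragments to be tested.

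**Figure D2:**
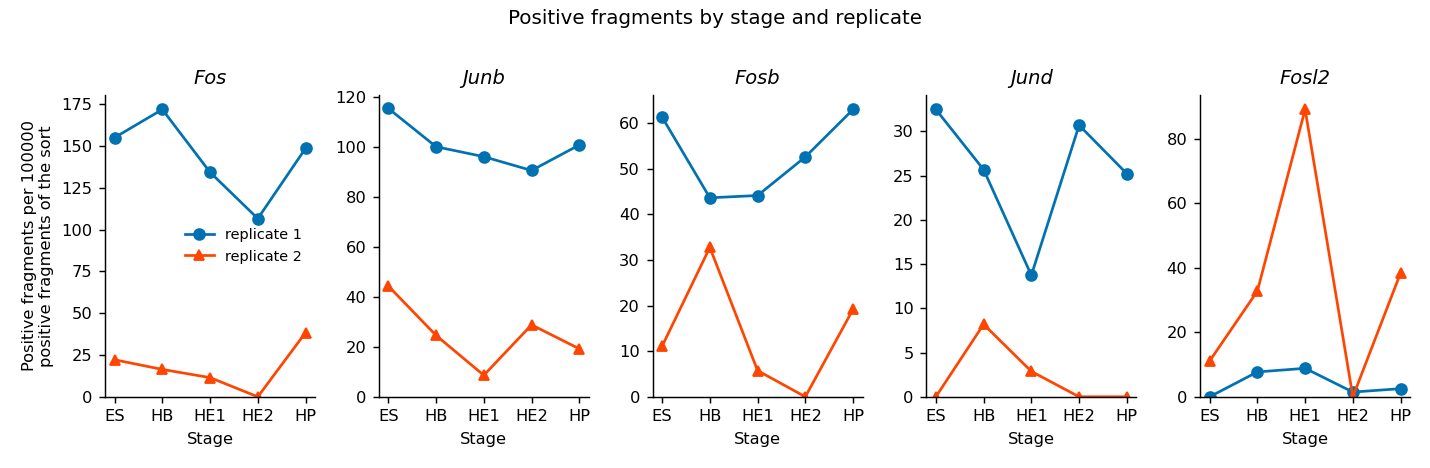
Positive fragments per 100000 positive fragments of the sort at the 5 loci with at least 40 positive fragments, by stage (ES, HB, HE1, HE2, HP) and replicate (each point is 1 sort, axes start at 0 and differ between panels). Replicate 1 lies above replicate 2 at every stage for Fos, Junb, Fosb and Jund, and Fosl2 peaks at 89.1 in HE1 of replicate 2.

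Most of the family's fragments came from a few regions. Of the 69 regions 32 held a single fragment (46.4%, against 55.0% of all regions), and 17 held at least 20 (24.6%, against 7.65%). These 17 held 1177 of the 1335 fragments, or 88.2%. A positive fragment was present in 58 of the 69 regions (84.1%, and 84.0% of all regions), and 11 of the 58 were positive in both replicates (19.0%, against 8.14%). Positive fragments at all 5 stages were found in 13 (22.4%, against 7.39%). Among regions with at least 20 fragments, 8 of the 17 were positive in both replicates (47.1%, against 43.2% of all 5742) and 11 at all 5 stages (64.7%, against 58.0%). The centres of 13 of the 17 larger regions lay between genes and 4 in exons of neighbouring genes, and for 11 the nearest start was that of the AP-1 gene.

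**Figure D3:**
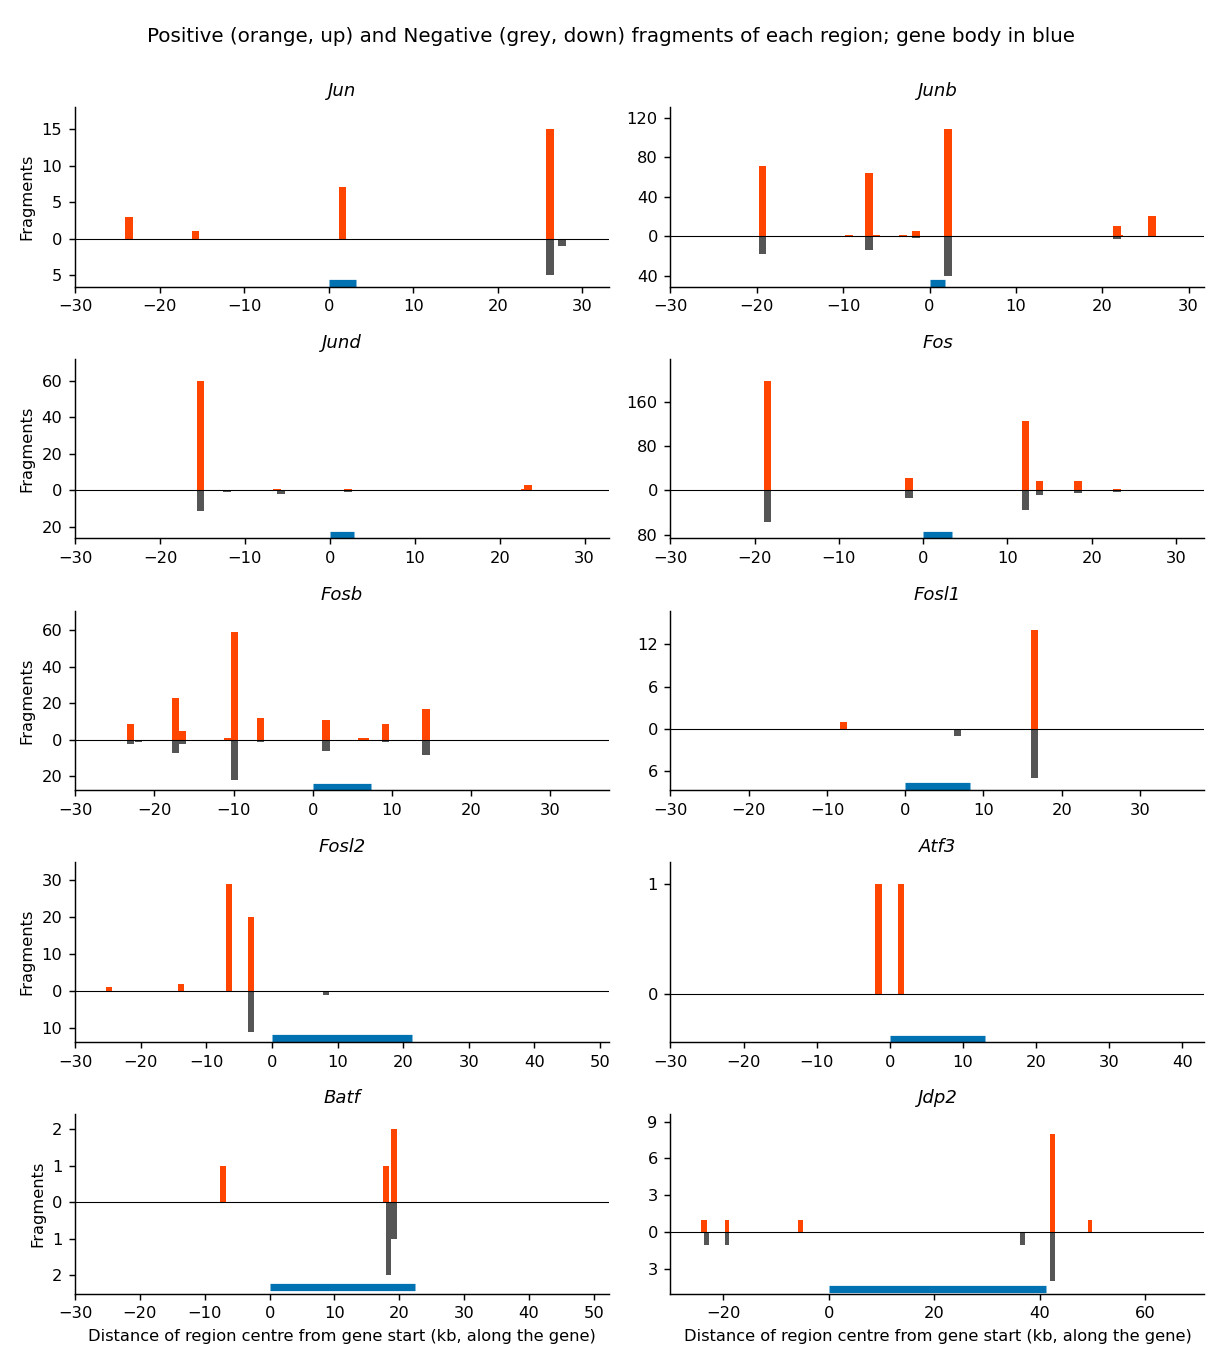
Positive fragments (orange, upwards) and Negative fragments (grey, downwards) summed over the 10 sorts for each of the 69 regions, against the distance of the region's centre from the start of the AP-1 gene in kb along the gene, with the gene body as a blue bar at the foot. Axes differ between panels. Fos, Jund and Fosl1 each have 1 or 2 tall regions outside the gene body, while Fosb has several on both sides.

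The 2 largest Fos regions, both outside the gene body, held 427 of its 526 fragments (81.2%). In neurons Fos is known to have several enhancers on either side of the gene that answer to activity. The larger region, chr12:85454944-85455919, lay 18.5 kb before the start, with 263 listed fragments, of which 206 were different. Its positive fragments numbered 26 in ES, 40 in HB, 68 in HE1, 35 in HE2 and 28 in HP in replicate 1, and its Negative fragments 10, 6, 27, 7 and 6. In replicate 2 only HP had any, with 2 of each. The region was therefore positive in every stage of replicate 1 and, with 199 positive against 198 expected, gave an odds ratio of 1.02 (0.759 to 1.38).

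The region chr12:85485491-85486591, 12.2 kb after the start and beyond the end of the gene, had 164 listed fragments. In replicate 1 it had 13, 20, 47, 21 and 22 positive fragments from ES to HP and 8, 5, 15, 3 and 4 Negative ones, and in replicate 2 it had 1 positive fragment in each of ES, HB and HE1. Its odds ratio was 1.02 (0.699 to 1.49). A CArG box lay 78 bp from its centre and was contained in 63 of 126 positive fragments (50.0%) and in 21 of 36 Negative ones (58.3%). In the region 18.5 kb before the start, at most 63.3% of positive fragments covered a single base, at -110 bp from the centre, and at most 70.7% of Negative ones, at -73 bp. In the region 12.2 kb after the start these were 61.1%, at 35 bp, and 66.7%, at 29 bp.

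Nearest to the Fos start was the region chr12:85471887-85472496, centred 1.7 kb before it, with 36 fragments. It had 3 positive and 2 Negative fragments in ES, 2 and 3 in HB, 5 and 3 in HE1, 7 and 1 in HE2 and 6 and 3 in HP in replicate 1, and 1 Negative fragment in HP of replicate 2. Its 23 positive fragments compared with 28.2 expected, the lowest ratio of the 17 regions (0.814), and its odds ratio was 0.458 (0.226 to 0.930). This was the only one of the 17 with an unadjusted p under 0.05 in the Cochran-Mantel-Haenszel test, at 0.0459, and its adjusted p over 5742 regions was 1. A region next to the larger one after the gene, centred 13.8 kb from the start, had 17 positive and 9 Negative fragments, and that at 18.4 kb had 17 and 4, all from HE1 and HE2 of replicate 1.

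At Junb the region chr8:84976187-84977092 spanned the end of the gene, 2.1 kb after its start, and was the only member region with positive fragments in all 10 sorts. It had 15, 10, 38, 23 and 15 positive fragments in replicate 1 from ES to HP, and 3, 2, 1, 1 and 1 in replicate 2. Negative fragments numbered 6, 7, 20, 4 and 2 in replicate 1 and 2 in HB of replicate 2. The 109 positive fragments fell below the 116 expected, with an odds ratio of 0.782 (0.544 to 1.12). Its CArG box, 11 bp from the centre, was contained in 58 of 109 positive fragments (53.2%) and 18 of 41 Negative ones (43.9%).

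One fragment of this region recurred more than any other at the 10 loci. The fragment chr8:84976548-84976783, 236 bp long and spanning the CArG box, was listed with identical ends in 10 libraries. These were the High libraries of HE2 and HP in replicate 1, and in replicate 2 the 3 positive libraries of ES, all 4 of HB and the Low library of HE2. It was thus found in 9 positive libraries and 1 Negative one. Of the 1057 different fragments 855 (80.9%) were in 1 library, as were 81.0% of those of the whole series. Only 3 (0.284%) were in both replicates, against 0.956% in the whole series. The second most recurrent, 100 bp in the Rtn2 region 14.3 kb after the Fosb start, stood in 3 positive and 3 Negative libraries.

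The other Junb regions lay before the gene. The region 7.0 kb before the start, chr8:84985235-84986260, had 10, 9, 21, 15 and 9 positive and 4, 0, 6, 3 and 1 Negative fragments from ES to HP, all in replicate 1, and an odds ratio of 1.27 (0.711 to 2.29). It held 4 AP-1 sites, more than any other of the 17 regions. The sites were contained in 5, 15, 21 and 30 of its 64 positive fragments in order along the chromosome, and in 0, 2, 2 and 6 of its 14 Negative ones. The region 19.3 kb before the start, in an exon of Hook2, had 71 positive and 18 Negative fragments and an odds ratio of 1.08 (0.642 to 1.83). The region 25.8 kb after the start, in an exon of Rtbdn, had 20 positive and 1 Negative fragment, with the highest ratio of the 17 regions (1.19), an odds ratio of 5.35 (0.687 to 41.7) and an unadjusted p of 0.138 in the Cochran-Mantel-Haenszel test.

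Jund rested on the region chr8:70682053-70682951, 15.2 kb before its start and 9271 bp past the start of Lsm4. It had 8, 10, 14, 18 and 9 positive fragments in replicate 1 from ES to HP, 1 in HB of replicate 2, and 2, 3, 5, 1 and 0 Negative ones in replicate 1. The odds ratio was 1.40 (0.729 to 2.70). One of its 2 AP-1 sites was contained in 30 of 60 positive fragments (50.0%) and 4 of 11 Negative ones (36.4%), and the other, near its edge, in 1 positive fragment.

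Fosb had 8 regions with over 5 fragments, on both sides of the gene and within it, against 6 at Junb and 5 at Fos. The largest, chr7:19319687-19320285, lay 9.9 kb before the start. It had 9, 10, 19, 13 and 8 positive and 7, 4, 9, 2 and 0 Negative fragments, all in replicate 1, and an odds ratio of 0.757 (0.459 to 1.25). The region 17.3 kb before the start had 23 positive and 7 Negative fragments and 1 AP-1 site, found in 11 of the former (47.8%) and 4 of the latter (57.1%). The region 14.3 kb after the start, in the exon of Rtn2, had 17 and 8.

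Fosl2 had a region that 1 library made. The region chr5:32129739-32130137, 6.5 kb before the start, had 30 listed fragments, of which 28 came from Low and 2 from Medium gates, with 0 from Negative and 0 from replicate 1. The HE1 Low library of replicate 2 gave 27 of them. These 27 had 15 different starts and 13 different ends, lay within 399 bp, and became 10 when fragments with both ends within 5 bp were joined. Against the 92.6% of fragments that were positive in this sort, 29 positive fragments compared with 26.6 expected (unadjusted p of 0.192 and adjusted p of 1 in the Cochran-Mantel-Haenszel test). Outside that sort 3 listed fragments remained, in ES and HB of replicate 2. All 3 were the same fragment, chr5:32129740-32130137, which the HE1 Low library listed as well. An AP-1 site was contained in 17 of the 29 (58.6%). The second Fosl2 region, 3.2 kb before the start, had 20 positive and 11 Negative fragments from both replicates and an odds ratio of 0.638 (0.309 to 1.32). Most of its 13 replicate 2 fragments were chr5:32133074-32133393 and chr5:32133074-32133394. Each was listed in the same 5 libraries, among them the Negative and a positive library of HB and of HE1. At the Fosl2 locus 9 of 12 Negative fragments were also positive in the same sort, and 5 of 6 outside HE1 of replicate 1. The region's odds ratio therefore rests largely on fragments counted on both sides.

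The remaining loci had little. Jun had its largest region 26.2 kb after the start, with 15 positive and 5 Negative fragments in replicate 1 only. A region in the Jun exon, 1.6 kb after the start, had 7 positive and 0 Negative fragments, and a 354 bp fragment there was listed in 4 positive libraries of replicate 2. The Fosl1 region of 21 fragments lay in an exon of Fibp, 16.5 kb after the start, with 14 positive and 7 Negative ones. Jdp2 had 8 and 4 in a region just beyond its end, 42.4 kb after the start, all from HE1 and HE2 of replicate 1. Batf had 2 positive and 1 Negative fragment in an intron 19.1 kb after the start, and Atf3 1 positive fragment in an intron 1.5 kb after its start and 1 at the same distance before it.

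None of the 17 member regions was called by the Cochran-Mantel-Haenszel test, adjusted over all 5742 regions with at least 20 fragments, of which 12 were called (0.209%) and 202 had an unadjusted p under 0.05. The adjusted p was 1 for all 17. Observed over expected ran from 0.814 to 1.19 with a median of 0.989, with 8 regions above 1 and 9 below, and the median of all regions was 0.999. The intervals show how much this leaves undecided. At the Fos region 18.5 kb before the start, the best measured, odds ratios from 0.759 to 1.38 lay inside the interval, and 12 of the 16 intervals with both ends held an odds ratio of 2 or its inverse.

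**Figure D4:**
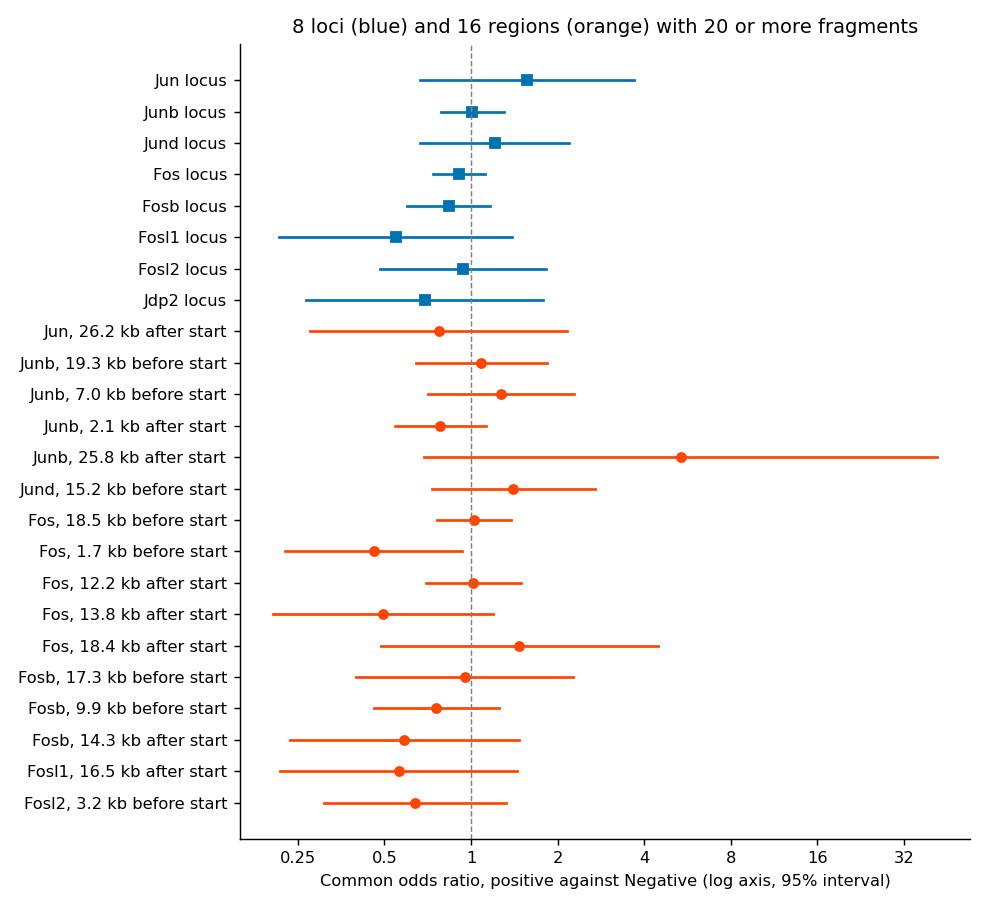
Common odds ratio of positive against Negative fragments with its 95% interval (log axis) for the 8 tested loci (blue squares) and 16 of the 17 tested regions (orange circles). The Fosl2 region 6.5 kb before the start has no Negative fragment and no finite ratio. Only the interval of the Fos region 1.7 kb before the start, 0.226 to 0.930, lies wholly on one side of 1, the dashed line.

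The regions shared few sequence features. An AP-1 site was found in 4 of the 17 regions, with 8 sites in all, of which 4 lay in the Junb region 7.0 kb before the start. The rate was 5.84 per 10 kb, against 3.80 over all 5742 regions. The central 300 bp of 3 regions held an AP-1 site (17.6%), against 14.4% of the central windows of all 5742 regions. A CArG box was found in 2 of the 17, both in the central window (11.8%), against 1.34% of all windows. The 17 windows held no RUNX match (TGTGGT), which 21.2% of all windows had, and 2 held the TEAD match (GGAATG), or 11.8% against 18.5%. Over their whole length, 7 of the 17 regions held a RUNX match and 6 a TEAD match. Per 10 kb the matches were 5.11 for RUNX and 5.84 for TEAD, against 8.03 and 6.72 over all regions. A GATA match (AGATAA) stood in 1 window (5.88%, against 15.4%) and in 3 of the 17 whole regions. The cyclic AMP response element stood in 0 of 17 windows (1.20% of all). All were searched on both strands, matches to different motifs may overlap, and the shares describe letters in the reference sequence.

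Positive fragments had a lower median length than Negative ones in 4 of the 5 replicate 1 sorts, with the widest gap, 170.5 against 202.5 bp, in HP, and 203 against 202 bp in HB. Pooled over replicate 1 the medians at the member loci were 183 bp for 908 positive and 196 bp for 279 Negative fragments, and over all replicate 1 fragments of the series 159 and 173 bp. The median GC content of the member fragments was 62.8% and 63.2%. In replicate 2 the medians were 227 and 226 bp at the member loci, with 90 and 28 fragments, and 273 and 203 bp over the whole series. Within its sorts the positive median differed from the Negative one by -87.5 bp in HE1 to 113.5 bp in HE2, each with 2 Negative fragments. An AP-1 site was contained in 99 of the 908 positive fragments (10.9%) and 17 of the 279 Negative ones (6.09%) in replicate 1, and in 17 of 90 and 2 of 28 in replicate 2. All 17 positive ones of replicate 2 lay in the Fosl2 region 6.5 kb before the start. There the HE1 Low library gave 27 of 30 listed fragments, so replicate 2 adds no separate evidence on this share. Overlapping fragments of a region share the same sites, so these counts go back to the few regions named above.

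**Figure D5:**
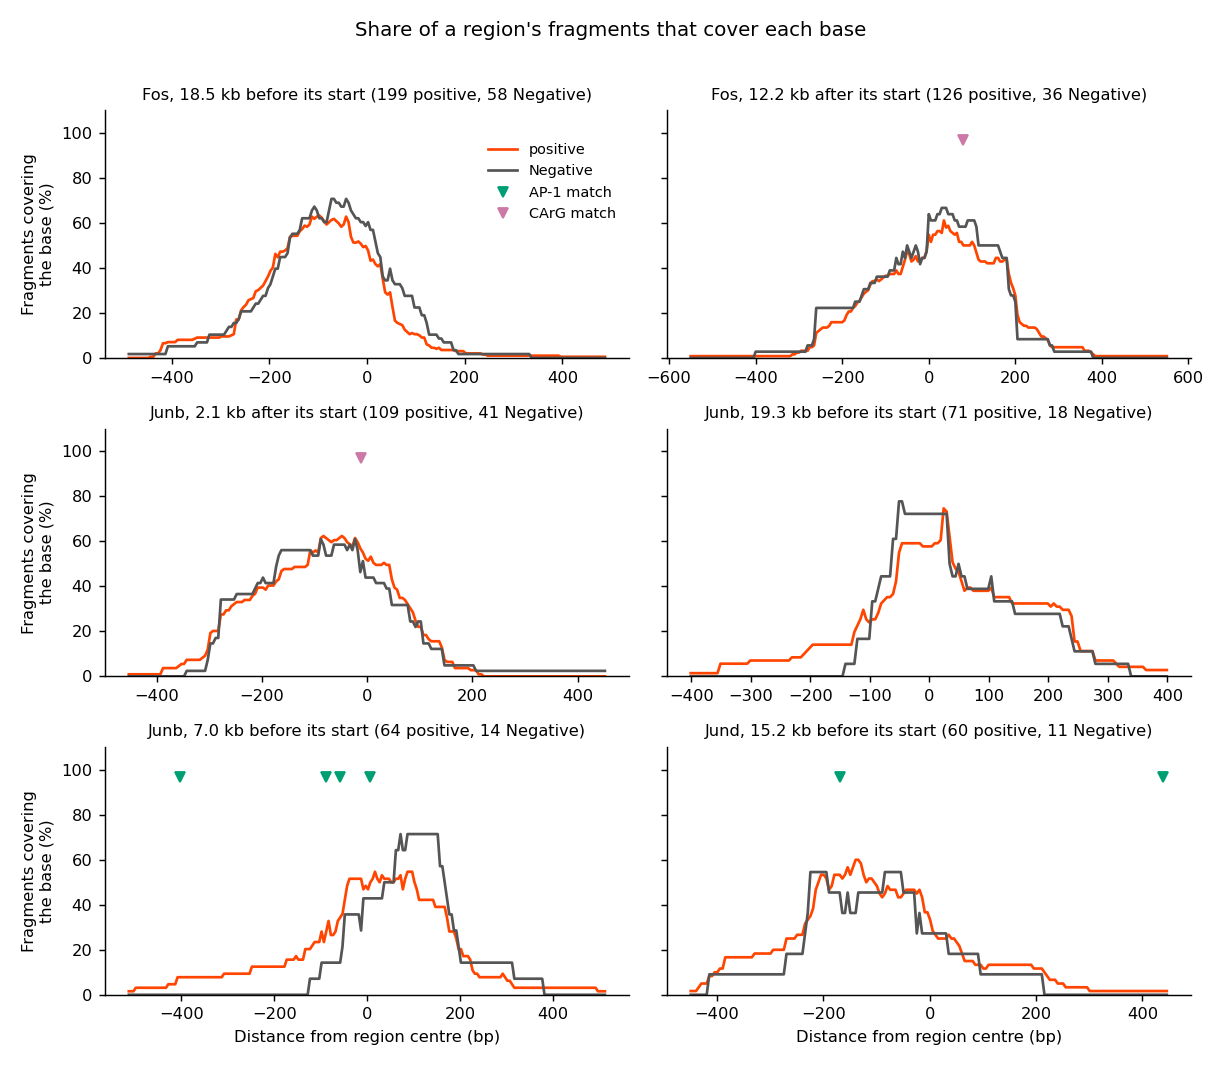
Share of the positive (orange) and Negative (grey) fragments of a region that cover each base, against the distance from the centre of the region in bp, for the 6 regions with most positive fragments, with AP-1 sites (green) and CArG boxes (pink) as triangles. The 2 profiles overlap in each region but need not peak at the same base, with peaks of 63.3% and 70.7% at -110 and -73 bp in the Fos region 18.5 kb before the start, and peaks at -139 and -227 bp in the Jund region.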

How the data were processed

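The 40 libraries listed unique reporter fragments. Per the methods and the submitters' processing notes, the authors used Trim Galore for trimming of read pairs and Bowtie2 for alignment to mm10, kept properly paired reads of high mapping quality, and reduced repeated fragments to 1. The methods also describe removing fragments found in a background library and keeping those in open chromatin with an ATAC peak at the same stage. Fragments within 1500 bp of a start were then set apart as promoter fragments. For the reporter fragments, tool versions, and which filters the deposited lists had passed, are not given in the sources used here. The values the authors deposited are start and end coordinates, without reads per fragment, scores or molecular identifiers, so depth is the number of listed fragments, and all intervals cover counting error only. Inserts had been amplified by PCR, which can give several fragments per molecule.

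Libraries were grouped by their titles. Gene bodies came from RefSeq on GRCm38, the assembly that mm10 names, and start sites from curated RefSeq transcripts. Loci and regions with at least 20 fragments were tested with a Cochran-Mantel-Haenszel test (continuity correction, 10 sorts as strata, SciPy 1.17.1), with Robins-Breslow-Greenland 95% intervals. Positive and Negative cells of a sort come from the same culture, so the replicate numbers pair them. Stages were compared with limma 3.58.1 (trend, F test) on log2 positive fragments scaled to the depth of the sort, with a prior count of 2, at loci with at least 40 positive fragments, without a block. P-values were adjusted over all features tested, and the threshold was 0.05. The scripts were tested on simulated data. These had no replicate difference in the rate of a locus across stages and no fragments shared between the positive and Negative sides, unlike the data. All 10 loci were named, with the region of each that had most positive fragments and every region with at least 20. The pathway lists and motifs were set with the loci. Members and lists were chosen with earlier results of these data known.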

Additional observations from a re-analysis of the deposited data

How the results depend on the processing

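No member locus or region was called under any alternative that could be computed. For the 8 loci 148 ratios of observed to expected positive fragments were recomputed, from 0.445 (Jdp2) to 1.47 (Jun), both with High alone as positive, and 129 kept their side of 1. For the 17 regions 235 of 246 did, from 0.489 for the Fos region 1.7 kb before the start to 1.71 for the Junb region 25.8 kb after the start, again with High alone. Of these 246, 11 had an unadjusted p under 0.05. They were 10 for that Fos region, and that of the Fosl2 region 6.5 kb before the start without the replicate block (ratio 1.32, unadjusted p of 0.00459, adjusted p of 0.507 in the Cochran-Mantel-Haenszel test). All 77 adjusted p-values of the stage test stayed above the threshold, the lowest at 0.631 with the replicate block.

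Some ratios changed side. Without the replicate block, pooling replicates, Fosl2 became 1.07. Leaving out fragments found on both sides gave 0.992 for Junb, 1.06 for Fosl2, 1.11 for the Fosl2 region 3.2 kb before the start, 1.03 for the Fosb region 17.3 kb before it and 0.989 for the Junb region 19.3 kb before it. High alone as positive gave that Fosb region 1.06, and joining fragments with ends within 5 bp gave the Fos region 18.5 kb before the start 0.997. A flank of 10 kb gave Junb 0.981 and one of 50 kb gave Jund 0.987. limma, with and without the replicate block, relative to its median of 0.14 (log2) over all loci, gave 1.15 for Fos and 1.10 for Fosl2. Leaving out sorts or a replicate gave ranges of 0.944 to 1.19 for Jun, 0.970 to 1.02 for Junb, 0.943 to 1.03 for Fosl2, 0.992 to 1.02 and 0.971 to 1.03 for the larger Fos regions and 0.935 to 1.05 for the Junb region 19.3 kb before the start. Jun fell to 0.985 without the HP sort of replicate 2. The cause of these changes was not tested.

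Counts over the genome moved more. Of regions 12 were called, 30 without the replicate block, 0 after joining, 26 without fragments found on both sides, 5 with High alone and 5 to 19 with sorts or a replicate left out, the lowest without the HE1 sort of replicate 2 or without replicate 2. Of loci 13 were called, 24 without the replicate block, 0 after joining, 23 without fragments found on both sides, 23 with a flank of 50 kb, 0 by limma with and without the block (1270 and 503 at an unadjusted p under 0.05) and 3 to 18 with sorts or a replicate left out. Shallow replicate 2 libraries and few Negative fragments limit every ratio.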
